A study of Homo sapiens with 4 samples.

Results

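The epidermal differentiation complex of HaCaT cells held 5 called H3K27me3 peaks in the DMSO list and 5 in the AKBA list over 1.66 Mb. This complex on 1q21 is a cluster of genes for the late stages of skin barrier formation. It was taken here as chromosome 1 from 151950000 to 153610000 of the human genome build hg19, and every peak that overlapped this interval by at least 1 bp was a member. The 10 members are part of 22045 peaks, of which 8890 were called with DMSO and 13155 with AKBA. The rule for members uses position alone, and the interval was chosen with earlier results of these data known. The mark, trimethylation of lysine 27 on histone H3, was mapped by immunoprecipitation of chromatin followed by sequencing. HaCaT is a human keratinocyte line that grows without limit in culture. Both groups were HaCaT cultures kept for 12 hours, one with the solvent DMSO and the other with AKBA, an abbreviation commonly used for an acetylated boswellic acid of frankincense resin that the labels do not spell out. Each group had 1 H3K27me3 library, so the spread between cultures is unknown and the treatment was not tested. The 2 input DNA samples have no values used here. The lists carry no read numbers, so depth is unknown, and sequence outside a peak was not called and may still carry the mark. The series holds no expression values, so the labelled cell type could not be set against markers.

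Polycomb repressive complexes lay down H3K27me3 and hold genes silent, and in mammals they are known to gather at CpG-rich DNA. The genes of the epidermal differentiation complex are largely silent in dividing basal keratinocytes and are switched on as the cells leave the basal layer. Their products build the cornified envelope, a cross-linked protein shell beneath the membrane of dead surface cells. The module covers 42 genes, and all 42 were found in the RefSeq gene table of assembly GRCh38.p14, where LOR is listed as LORICRIN. In that table they run in a fixed order along the chromosome. The filaggrin-type genes TCHHL1, TCHH, RPTN, HRNR, FLG, FLG2 and CRNN come first and encode large repeat proteins that bind or bundle keratin or line the envelope. The LCE genes follow and encode late envelope proteins. They are followed by IVL, which encodes the early envelope scaffold involucrin, by the SPRR genes for small proline-rich cross-bridging proteins, and by LORICRIN for loricrin, a major envelope protein. SMCP, named for a protein of sperm mitochondria, and LELP1, a late envelope-like proline-rich gene, lie among them. S100A9, S100A12, S100A8 and S100A7, which encode calcium-binding proteins that are induced in inflamed skin, close the row.

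Promoter sequences are shown because CpG content is a feature of the members that the choice by position did not use. The RefSeq table of GRCh38.p14 gives 250 bases before and 50 bases after a gene's start, on the gene's own strand, and held 39 of the 42 members. LCE1B, SPRR2D and SPRR2E were not matched. Those of LORICRIN, TCHH, IVL and FLG are printed for the best known envelope and filaggrin-type genes, that of LCE1F for the highest CpG number among the members, and that of S100A9 for the S100 genes. LORICRIN, IVL, LCE1F and S100A9 lie on the plus strand, and TCHH and FLG on the minus strand. Capitals mark the letters TATAAA, the core of a TATA box, and TGANTCA, which takes in TGAGTCA, the consensus of AP-1 factors, and forms that differ from it at N. Both were searched on both strands, and no match of one overlapped a match of the other in the sequences shown.
LORICRIN: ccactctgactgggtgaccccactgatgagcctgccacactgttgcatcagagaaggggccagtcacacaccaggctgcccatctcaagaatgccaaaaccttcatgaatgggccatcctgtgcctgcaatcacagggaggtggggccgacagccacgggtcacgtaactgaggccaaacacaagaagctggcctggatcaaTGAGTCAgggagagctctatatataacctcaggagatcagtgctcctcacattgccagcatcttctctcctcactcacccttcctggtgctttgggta
TCHH: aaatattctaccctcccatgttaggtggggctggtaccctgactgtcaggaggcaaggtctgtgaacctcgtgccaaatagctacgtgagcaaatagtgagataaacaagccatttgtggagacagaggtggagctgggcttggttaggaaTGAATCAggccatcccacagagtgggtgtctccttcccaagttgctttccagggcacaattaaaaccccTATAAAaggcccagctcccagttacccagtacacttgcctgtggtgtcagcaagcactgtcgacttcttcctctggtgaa
IVL: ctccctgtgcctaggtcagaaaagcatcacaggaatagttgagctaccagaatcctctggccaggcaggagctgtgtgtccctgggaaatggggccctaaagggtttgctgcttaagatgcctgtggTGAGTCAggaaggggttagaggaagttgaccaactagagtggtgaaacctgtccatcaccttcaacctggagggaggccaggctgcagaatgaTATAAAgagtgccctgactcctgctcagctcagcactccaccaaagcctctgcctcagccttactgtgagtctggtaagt
FLG: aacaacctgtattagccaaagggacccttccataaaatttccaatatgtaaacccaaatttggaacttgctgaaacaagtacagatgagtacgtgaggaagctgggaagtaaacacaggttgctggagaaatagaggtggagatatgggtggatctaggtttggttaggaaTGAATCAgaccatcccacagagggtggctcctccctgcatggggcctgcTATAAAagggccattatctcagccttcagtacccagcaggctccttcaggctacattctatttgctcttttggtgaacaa
LCE1F: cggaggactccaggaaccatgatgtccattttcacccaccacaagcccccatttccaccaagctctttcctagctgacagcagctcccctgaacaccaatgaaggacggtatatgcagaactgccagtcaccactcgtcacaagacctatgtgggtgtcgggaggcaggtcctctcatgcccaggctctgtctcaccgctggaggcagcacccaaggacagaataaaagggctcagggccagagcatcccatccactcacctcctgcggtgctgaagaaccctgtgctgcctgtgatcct
S100A9: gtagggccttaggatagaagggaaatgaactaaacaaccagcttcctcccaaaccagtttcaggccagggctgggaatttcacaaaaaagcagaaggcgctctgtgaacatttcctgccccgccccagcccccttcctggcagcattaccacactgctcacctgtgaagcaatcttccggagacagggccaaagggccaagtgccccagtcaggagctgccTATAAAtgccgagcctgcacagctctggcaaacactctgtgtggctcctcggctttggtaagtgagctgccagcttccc

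The 39 member promoters were poor in CpG, the step from C to G on 1 strand. They held 0 to 6 CpG steps in 300 bases with a median of 2, against a median of 14 over all 27305 promoters of the table and 22 over the 15843 of protein-coding genes. IVL, CRNN and SPRR1B held none, FLG held 1, and TCHH and LORICRIN held 3 each. The highest number, 6 in LCE1F, is reached or undercut by 37.5% of all promoters and by 21.6% of those of protein-coding genes. Few CpG steps were therefore common to the members. A single promoter with so few is not unusual in the table, but the members as a set lay low in it, as the medians show. Base composition differed less. Median GC content was 51.3% in the members, 58.3% in all promoters and 62.7% in those of protein-coding genes. No peak was placed on a promoter, because the promoter table and the peak lists have different builds.

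**Figure D1:**
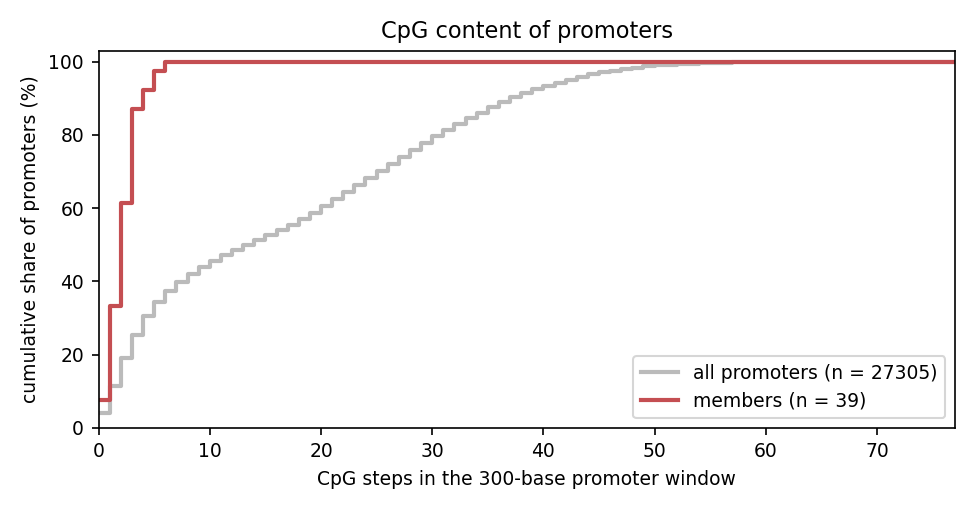
The x axis gives CpG steps in the 300-base promoter window and the y axis the cumulative share of promoters in percent, for the 39 matched members and all 27305 promoters. The members' line reaches its full height at 6 CpG steps, where the line of all promoters stands at 37.5%.

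A TATA box at the usual distance was frequent among the members. The motifs given here and below were chosen after the promoter sequences were seen, so their shares are descriptions and not tests. Related genes can share promoter sequence, so the promoters are not independent of each other. The letters TATAAA began 20 to 40 bases before the start, on the gene's strand, in 20 of 39 member promoters (51.3%), against 2.55% of all promoters and 3.64% of those of protein-coding genes. In these 20 the first T lay 28 to 31 bases before the start. By family they were 5 of 7 filaggrin-type, 7 of 8 SPRR, 5 of 16 LCE and 2 of 4 S100 promoters, and IVL. LORICRIN had no TATAAA match anywhere in its window. Other forms of the TATA box were not searched, so this does not mean that it lacks one. Anywhere in the window and on either strand, TATAAA was found in 24 of 39 members (61.5%) and in 12.0% of all promoters.

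The AP-1-type letters TGANTCA were found in 16 of 39 member promoters (41.0%), 7.76% of all promoters and 5.75% of those of protein-coding genes. They divided the families. The match was present in 6 of 7 filaggrin-type promoters, where HRNR was the exception, in 6 of 8 SPRR promoters, in both IVL and LORICRIN, in LELP1 and in S100A12. None of the 16 LCE promoters had it. The consensus form TGAGTCA, searched on both strands, was less frequent and gave another pattern by family. Its shares were 7 of 39 members (17.9%), 4.92% of all promoters and 3.66% of those of protein-coding genes. It was held by 5 of 8 SPRR promoters, IVL and LORICRIN and by 0 of 7 filaggrin-type promoters, whose matches were all TGAATCA or TGATTCA. The match began 48 bases before the start in LORICRIN, 79 in FLG, 99 in TCHH and 123 in IVL. FLG and TCHH shared a run of 19 bases around it, ttggttaggaaTGAATCAg, in which the capitals mark the match. CRNN and TCHH shared another run of 19 bases, ttaaaacccctataaaagg, which holds the TATA box of both. Of 2 further motifs searched on both strands, ACCGGT was found in 1 member (2.56%) and 1.80% of all promoters, and CACGTG in 5 members (12.8%), all of them LCE genes, and 7.43% of all promoters. A match of letters is a description of the sequence and says nothing of binding in these cells.

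The peaks of the interval fell at 4 places, of which 3 held peaks of both lists and the last an AKBA peak alone. A place is a group of peaks of either list joined across gaps of up to 5 kb. From textbook knowledge of hg19 positions, which no file used here holds, the first place lies at TCHH, the second at CRCT1, a small gene of the same complex, and the third at LOR. No gene annotation of that build was used, so these names enter no count, and positions within exons, introns or promoters are not given. TCHH encodes trichohyalin, a structural protein of hair follicles and of the tongue that also occurs in epidermis.

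**Figure D2:**
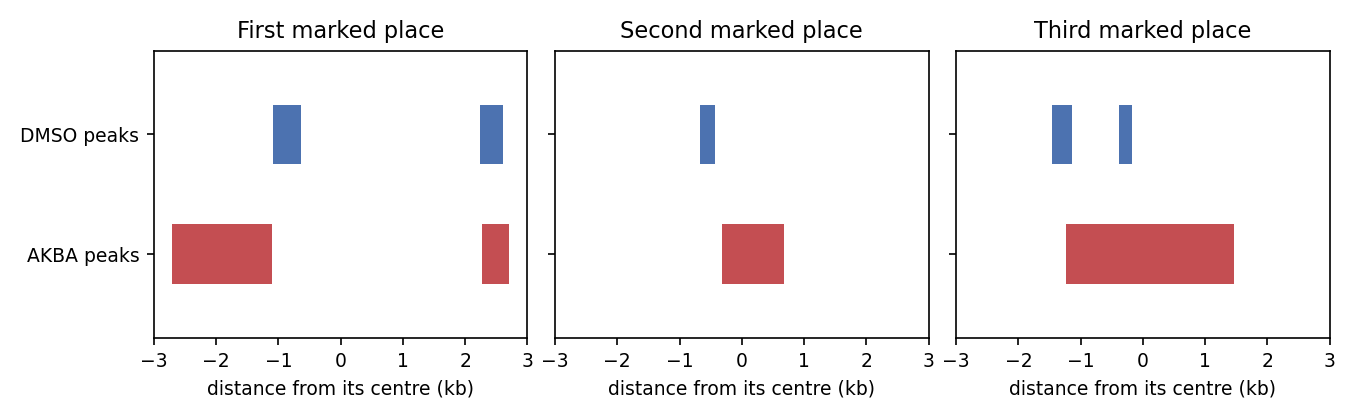
Bars show the DMSO peaks (upper row) and AKBA peaks (lower row) of the 3 places marked in both lists, against the distance in kb from the centre of each place. AKBA peaks cover 2041 bp at the first place, 995 bp at the second and 2699 bp at the third, against 814, 236 and 533 bp of DMSO peaks.

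At the first place both lists held a pair of peaks. The DMSO peaks were chr1:152081420-152081874, of 455 bp, and chr1:152084750-152085108, of 359 bp. The AKBA peaks were chr1:152079796-152081397, of 1602 bp, and chr1:152084778-152085216, of 439 bp. The right-hand peaks nearly coincided, with 331 bp in common, which is 92.2% of the DMSO peak and 75.4% of the AKBA peak. The left-hand peaks did not touch. The AKBA peak ended 22 bp before the DMSO peak began, so the marked stretch was called on opposite sides of that boundary. Between the left and right peak 2875 bp stayed uncalled in the DMSO list and 3380 bp in the AKBA list.

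The second place had 1 peak in each list, again side by side. The DMSO peak chr1:152487102-152487337 measured 236 bp and the AKBA peak chr1:152487447-152488441 measured 995 bp. A gap of 109 bp separated them, so neither counts as shared.

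At the third place, a single AKBA peak took in what were separate DMSO peaks. The DMSO peaks were chr1:153233236-153233552, of 317 bp, and chr1:153234306-153234521, of 216 bp. The AKBA peak chr1:153233449-153236147 measured 2699 bp, the widest of the interval. It held all of the second DMSO peak and 32.8% of the first, and 11.9% of its own length lay in DMSO peaks. In the whole list 583 of 13155 AKBA peaks (4.43%) lay over at least 2 DMSO peaks, while 4230 overlapped any DMSO peak at all. The gap between the DMSO peaks was 753 bp, below 857 bp, the smallest gap between any neighbouring AKBA peaks. Joined across such gaps, the DMSO peaks of this place form 1 peak of 1286 bp.

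The fourth place, chr1:153410964-153411367, had an AKBA peak of 404 bp and no DMSO peak within 176442 bp. Over the genome 46.6% of places held AKBA peaks alone.

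Of the DMSO peaks in the interval, 3 of 5 (60%, exact 95% Clopper-Pearson interval 14.7 to 94.7%) overlapped an AKBA peak by 1 bp or more, against 54.5% of the whole list. Of the AKBA peaks, 2 of 5 (40%, interval 5.27 to 85.3%) overlapped a DMSO peak, against 32.2% of the whole list. The intervals cover counting error alone and both include the share of the whole list, so no departure from it was detectable with 5 peaks. The 2 DMSO peaks without an overlap lay 22 and 109 bp from an AKBA peak. When peaks within 1 kb counted as shared, 5 of 5 DMSO peaks (100%, interval 47.8 to 100%) had a counterpart, against 63.3% of the whole list. For AKBA it was 4 of 5 peaks (80%, interval 28.4 to 99.5%), against 37.7%. Both intervals again include the share of the whole list. When an overlap of at least 50% of both peaks was asked for, 1 of 5 remained shared in each list (20%), the right-hand pair of the first place. Among all DMSO peaks with no overlap, 19.3% had an AKBA peak within 1 kb.

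AKBA peaks covered more sequence than DMSO peaks at each of the 3 common places. The ratio of AKBA to DMSO bases was 2.51 at the first, 4.22 at the second and 5.06 at the third. More AKBA than DMSO bases is the usual state of common places, at 78.4% of 4262, and a ratio of at least 2 was reached by 36.6% of them. The median ratio over all common places was 1.60, with quartiles of 1.08 and 2.65. The first ratio lay inside that range and the other two above it, with 13.6% of common places at or beyond the second and 9.34% at or beyond the third. With peaks of each list merged within 5 kb, the ratio of the first place was 1.47 and that of the third 2.10, which is also its value with the DMSO peaks joined as above. With scores of at least 3 the ratio of the first place was 5.69. The second place then turned to DMSO bases alone, since its AKBA peak scored 2.94, and the third lost both DMSO peaks. That cut may not be equally strict in both lists. With the 8890 highest-scoring peaks of each list, the ratios of 2.51, 4.22 and 5.06 were unchanged. The median over all common places was not recomputed for any of these settings.

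**Figure D3:**
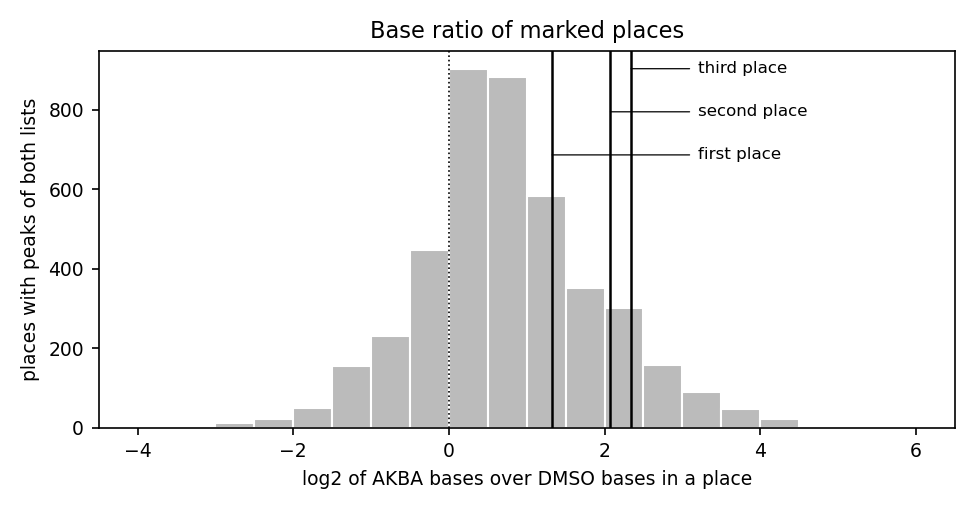
Bars count the 4262 places with peaks of both lists by the log2 ratio of AKBA to DMSO bases, in steps of 0.5, and all of them lie within the axis. Vertical lines mark the 3 common places of the interval at 1.33, 2.08 and 2.34, to the right of the dotted line of equal coverage.

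Summed over the interval, peak numbers were equal and covered bases were not. The 5 DMSO peaks covered 1583 bp and the 5 AKBA peaks 6139 bp, a ratio of 3.88, against 1.94 in the rest of the genome. The ratio of peak numbers was 1 with an exact 95% interval of 0.230 to 4.35, which includes the 1.48 of the rest of the genome. Median widths were 317 bp with DMSO and 995 bp with AKBA, and 553 and 742 bp in the rest of the genome. The DMSO peaks of the interval were thus narrow for their list, between 216 and 455 bp, and all 5 were narrower than its median peak. The AKBA peaks ran from 404 to 2699 bp, and 3 of 5 were wider than the median of their list. The ratio of bases moved with the settings. It was 2.63 with neighbouring DMSO peaks joined across gaps shorter than 857 bp, 1.83 with peaks of each list merged within 5 kb, and 7.97 with scores of at least 3. It was 2.21 when the interval was lengthened by 100 kb on each side, which brought in a DMSO peak of 1827 bp at chr1:153650284-153652110. The 1.94 of the rest of the genome was not recomputed for these settings, so it compares only with the 3.88.

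The score that the authors gave each peak ordered the places differently in the lists. Within the DMSO list the second place had the highest score of the interval, 4.50, above 89.2% of DMSO peaks. The peaks of the third place had the lowest, 2.09 and 2.25, above only 1.21% and 6.30% of DMSO peaks. The base ratio and the joined peaks of the third place thus rest on DMSO calls near the bottom of their list. Within the AKBA list the peaks of the first place led with 4.98 and 4.76. The third place followed with 4.03, above 77.8% of AKBA peaks, and the second place, at 2.94, stood near the middle at 47.9%. The lone AKBA peak of the fourth place had the lowest score, 2.27, above only 11.9% of AKBA peaks. These ranks were taken within each list, since no source used here states the scale of the scores. The cut at scores of at least 3 used elsewhere is the same number in both lists. It may not be equally strict in each.

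Most of the interval was free of called peaks in both conditions. The longest free stretch ran between the second and the third place, from 152488442 to 153233235, and spanned 744.8 kb or 44.9% of the interval. Between CRCT1 and LORICRIN the RefSeq gene order has 35 protein-coding genes, among them 29 of the 42 members. These are 16 LCE genes, all 10 SPRR genes, IVL, LELP1 and SMCP. If the second and the third place lie at CRCT1 and LOR, as stated above from textbook knowledge, neither list had a peak in the stretch that holds these 29 genes. Another 401.9 kb without a peak lay between the first and second place, from 152085217 to 152487101, and in the table the 6 coding genes between TCHH and CRCT1 are RPTN, HRNR, FLG, FLG2, CRNN and LCE5A. Stretches of this kind occur elsewhere. With the peaks of both lists pooled, 72 longer ones than the first were counted on chromosome 1. Of all 17085 stretches between peaks, 937 (5.48%) were at least as long, against a median stretch of 18.4 kb. This share counts stretches and not genes or bases. Long stretches hold more sequence each, so the share of the genome within them is larger. The share of all genes that lie in stretches as long was not computed.

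**Figure D4:**
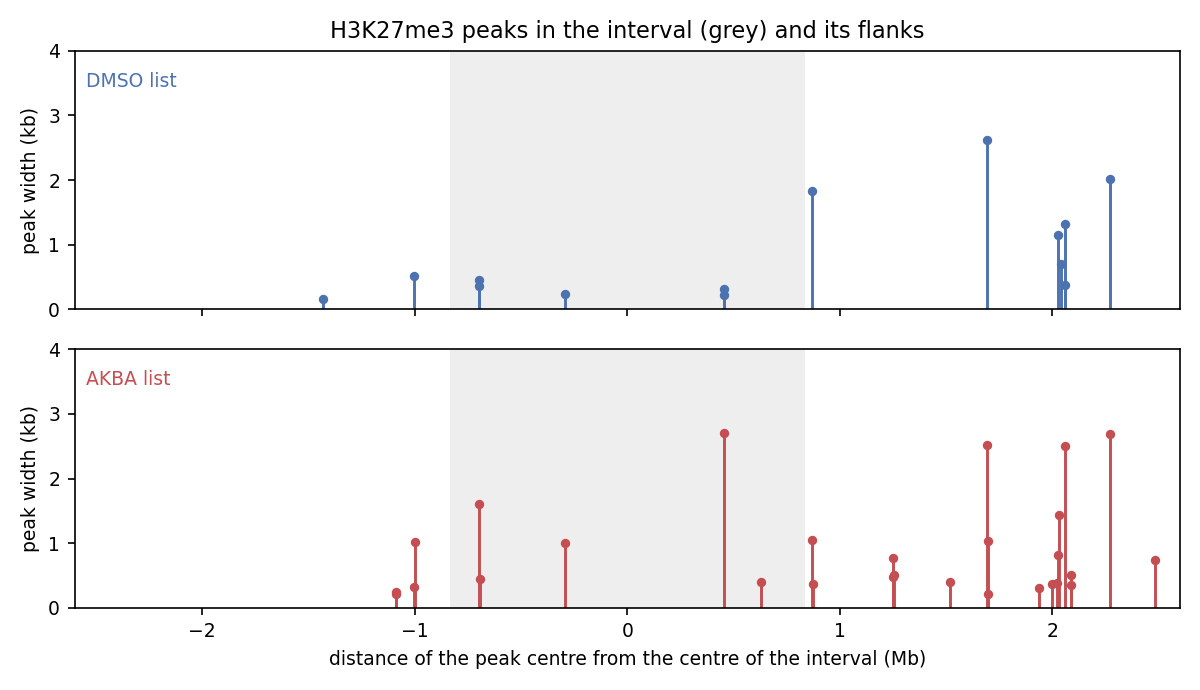
Each line is a peak, at the distance in Mb of its centre from the centre of the interval, with its width in kb as height, for the DMSO list above and the AKBA list below. The interval is grey, and its 5 peaks per list stand at the same 3 places plus a lone AKBA peak, while the right flank holds 7 DMSO and 19 AKBA peaks.

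Set beside the 1.66 Mb on each side, the interval lay between a sparse left flank and a denser right flank. The left flank held 2 DMSO and 4 AKBA peaks, with no overlap between the lists, and the right flank 7 DMSO and 19 AKBA peaks. In the DMSO list the peak density of the interval was 3.01 per Mb against 2.71 in both flanks, a ratio of 1.11 with an exact 95% interval of 0.293 to 3.69. In the AKBA list it was 3.01 per Mb against 6.93, a ratio of 0.435 with an interval of 0.129 to 1.17. Both intervals include 1. Against the right flank alone the AKBA ratio was 0.263, with an interval of 0.0768 to 0.729 that lies below 1. The DMSO ratio was 0.714, with an interval of 0.179 to 2.61. Against the left flank alone the ratios went the other way. They were 1.25 for AKBA (0.269 to 6.30) and 2.5 for DMSO (0.409 to 26.3), and both intervals include 1. Whether the AKBA and DMSO ratios differ was not tested. These intervals treat peaks as independent, although neighbouring peaks of a place are not.

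Covered bases set the interval apart from the right flank in both lists. DMSO peaks covered 0.954 kb per Mb of the interval, 0.406 kb per Mb of the left flank and 6.03 kb per Mb of the right. AKBA peaks covered 3.70, 1.08 and 10.5 kb per Mb. The base density of the interval was 0.296 times that of both flanks in the DMSO list and 0.639 times in the AKBA list. With flanks of 3 Mb on each side the values were 0.176 and 0.412. Against the rest of the genome they were 0.369 and 0.738.

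Among 1750 windows of the same length that tile the chromosomes, the interval was neither among the emptiest nor among the fullest. No more DMSO peaks than its 5 were found in 71.1% of windows, and no more AKBA peaks in 60.5%. For covered bases the shares were 47.2% with DMSO and 62.5% with AKBA. The median window held 3 DMSO and 3.5 AKBA peaks, and 431 windows had no DMSO peak. The base ratio of 3.88 was reached by 9.66% of the 1273 windows with peaks of both lists, and by 6 of the 94 windows that also held 5 DMSO peaks.

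**Figure D5:**
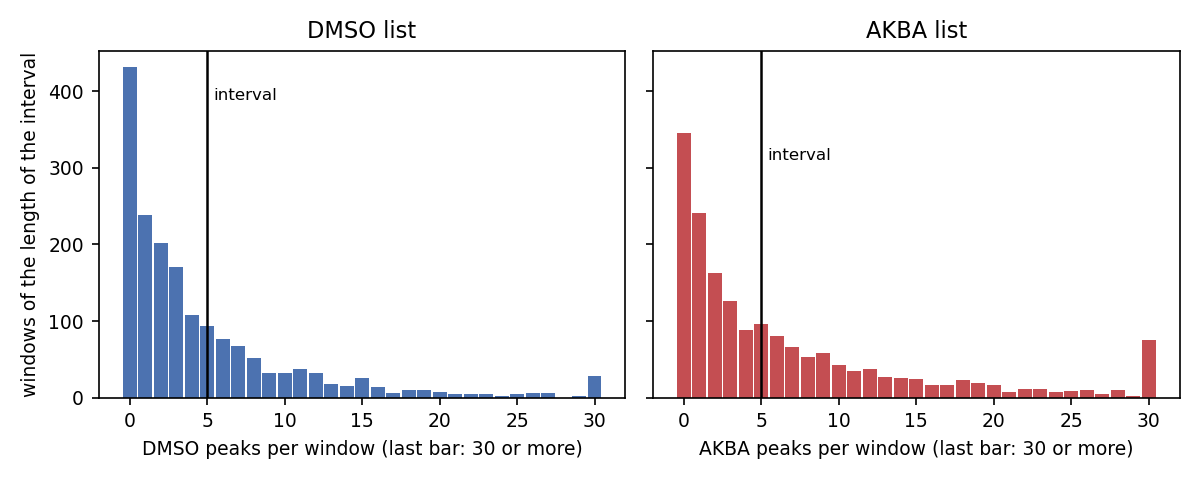
Bars count windows of 1.66 Mb by their number of DMSO peaks (left) and AKBA peaks (right), with windows of 30 or more in the last bar. The vertical line marks the interval at 5 peaks in both panels, above the medians of 3 and 3.5.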

How the data were processed

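H3K27me3 libraries of HaCaT cells, 1 with DMSO and 1 with AKBA, each have 1 deposited peak list. Per the labels' protocols, crosslinked chromatin was sonicated and immunoprecipitated, and libraries were amplified and selected on a gel. Per the submitters' processing notes the build was hg19 and the tools BWA, STAR and MACS2, without versions. No source used here gives the threshold, the handling of duplicates or the use of the input. The score that the authors deposited, 1 per peak, runs from 2.00 to 18.7 (DMSO) and from 2.03 to 14.3 (AKBA) on an unstated scale. The narrowest peak is 160 bp (DMSO) and 214 bp (AKBA), and the smallest gap 641 and 857 bp, and the settings behind these values are not stated.

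Counts, widths, overlaps of at least 1 bp and windows were computed with scipy 1.17.1, pandas 2.3.3 and numpy 2.4.6 under Python 3.11.15, drawn with matplotlib 3.10.9, tested on simulated data and checked against bedtools 2.31.1. Coordinates are 1-based hg19. Genome densities use the span from the first to the last peak of each chromosome. Windows tile these spans, and on chromosome 1 they are aligned to the interval. Intervals are exact binomial ones, conditional on the summed count for ratios. With 1 library per condition no test was run. The 42 genes and the interval were chosen with earlier results of these data known, and the promoter motifs after the promoter sequences were seen. All 10 peaks of the interval are named. RefSeq GRCh38.p14 served for names, gene order and promoters by symbol, with the first listed start of each gene. Gene assignment and the cornification genes elsewhere were not analysed here.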

Additional observations from a re-analysis of the deposited data

How the results depend on the processing

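Of 99 recomputed values, 87 stayed within their interval or within 1.5 times. The intervals are wide with so few peaks, so this count is no measure of stability. The share of DMSO peaks, for instance, fell from 60% to 20% and stayed within its interval of 14.7 to 94.7%. The base ratio of AKBA to DMSO over the interval stayed above 1 where it could be computed. The second place alone turned, to 236 DMSO and 0 AKBA bases with scores of at least 3. It did not turn with the 8890 highest-scoring peaks of each list, where the ratio over the interval was 3.62. Merging peaks within 5 kb moved the base ratio of AKBA to DMSO from 3.88 to 1.83 and the DMSO base density against the flanks from 0.296 to 0.892, by counting the sequence between peaks. Scores of at least 3 gave 7.97 and 0.146, with 2 DMSO and 3 AKBA peaks left. This cut may not be equally strict in both lists. The longer interval gave 2.21 and 0.688, from the peaks it adds. Flanks of 3 Mb gave base densities of 0.176 (DMSO) and 0.412 (AKBA). Peaks of at least 1 kb left no DMSO peak in the interval, so the density of DMSO peaks and bases against the flanks was 0, the AKBA share 0%, and no ratio of AKBA to DMSO could be had. Peaks within 1 kb counted as shared gave 100% of DMSO peaks, and an overlap of 50% of both peaks 20% in each list. Leaving out the lone AKBA peak, chosen after seeing the data, gave a base ratio of 3.62. With all 42 listed starts of the 39 members in place of the first, also chosen after seeing the data, the median CpG number stayed at 2 and TATAAA in its window went to 50%. Alternatives for gene assignment were not run, since no hg19 annotation was used here. No paired analysis was possible because each condition has 1 library. Unknown depth limits every comparison.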
